A study of Drosophila melanogaster with 2 samples.

Results

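The 10 genes described here encode structural proteins of the Drosophila eggshell, and their promoters were read for binding of CG1620-eGFP in whole adult females. The genes are Cp7Fa, Cp7Fb, Cp36 and Cp38, which lie together on the X chromosome, Cp18, Cp15, Cp19 and Cp16, which lie together on chromosome arm 3L, and the vitelline membrane genes Vm34Ca and Vm32E on arm 2L. The 10 genes were taken by name from a list and make up 10 of the 13945 annotated protein-coding genes on the 5 large arms and chromosome 4. Every one of the 10 was found in the annotation, and each is accounted for below whether or not a peak was found at it.

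The flies came from 1 transgenic Drosophila melanogaster line that stably expresses the CG1620 protein with green fluorescent protein (GFP) joined to its C-terminus, and the antibody used for chromatin immunoprecipitation with sequencing (ChIP-seq) recognises GFP. There was 1 group of 2 biological replicates, numbered 2 and 3, each from whole adult females of unknown age, with chromatin sheared to 200 to 800 bp. All animals carried the fusion, and the control used for the peak lists was not analysed here, so no second condition could be set against it and no test between conditions or p-value is given. A whole female holds ovaries among all her other organs, so a strong site in few cells and a weak site in many cells cannot be told apart, and the files hold no expression values from which the presence of follicle cells could be checked.

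The eggshell is secreted by the somatic follicle cells that surround each egg chamber late in oogenesis. Vitelline membrane proteins are laid down first, next to the oocyte, and the chorion proteins follow in the last stages. Follicle cells make many copies of the X and 3L chorion gene clusters by firing replication origins inside them again and again, a process called chorion gene amplification, which raises the number of DNA templates for the chorion genes and, in declining amounts, for the DNA on either side. Chorion gene promoters are known for a hexamer, TCACGT, a short distance ahead of the TATA box.

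The 100 bases before the transcription start site (TSS) of the 8 chorion genes are shown because they let the promoters of the X genes, where candidates for binding were found, be read beside those of the 3L genes, where none was found. They are from the RefSeq sequence of the release 6 genome (dm6), 5′ to 3′ on the strand of the gene, with TCACGT in capitals.
Cp7Fa, chrX:8470788-8470887, plus strand: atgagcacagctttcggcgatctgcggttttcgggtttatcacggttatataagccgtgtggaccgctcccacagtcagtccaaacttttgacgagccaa
Cp7Fb, chrX:8473737-8473836, plus strand: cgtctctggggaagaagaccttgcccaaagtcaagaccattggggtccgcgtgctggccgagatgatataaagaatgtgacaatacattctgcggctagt
Cp36, chrX:8479219-8479318, plus strand: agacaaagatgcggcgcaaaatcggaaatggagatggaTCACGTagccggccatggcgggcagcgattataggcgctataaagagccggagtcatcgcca
Cp38, chrX:8481737-8481836, plus strand: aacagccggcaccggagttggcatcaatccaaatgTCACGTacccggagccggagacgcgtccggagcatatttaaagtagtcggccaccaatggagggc
Cp18, chr3L:8726691-8726790, plus strand: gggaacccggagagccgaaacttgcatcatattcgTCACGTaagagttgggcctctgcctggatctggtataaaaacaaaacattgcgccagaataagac
Cp15, chr3L:8728381-8728480, plus strand: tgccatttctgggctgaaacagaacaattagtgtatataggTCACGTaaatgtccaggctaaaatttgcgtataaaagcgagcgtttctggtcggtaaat
Cp19, chr3L:8729765-8729864, plus strand: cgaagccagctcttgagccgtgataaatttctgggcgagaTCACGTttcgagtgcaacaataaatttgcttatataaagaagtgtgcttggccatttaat
Cp16, chr3L:8731844-8731943, plus strand: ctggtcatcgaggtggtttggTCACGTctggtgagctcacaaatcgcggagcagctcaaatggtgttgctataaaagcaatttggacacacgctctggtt

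TCACGT was found, on either strand, in the 250 bases before the most upstream TSS of 7 of the 10 genes, against 5.17% of the 13945 protein-coding genes. The hexamer was searched because it is known from chorion promoters, so its excess at chorion genes is a description and no test. All 4 genes of the 3L cluster held it, at 59 bases before the TSS in Cp15, 60 in Cp19, 65 in Cp18 and 79 in Cp16, counted to the first base of the hexamer. In the X cluster it was found 62 bases before the TSS of Cp36 and 65 bases before that of Cp38, and these letters were not in the window of Cp7Fa or Cp7Fb. Vm34Ca held it at 114 bases before the TSS, farther out than the chorion genes, and the letters were not in the window of Vm32E. TATAAA, the core of the TATA box, was also found in 7 of the 10, against 43.0% of all genes, and in each of those 7 it lay 24 to 34 bases before the TSS on the strand of the gene. These 7 were Cp36, Cp7Fb, the 4 genes on 3L and Vm34Ca. The hexamer and the exact letters TATAAA were thus in every promoter of the 3L cluster, whereas Cp36 was the X gene with both. Other forms of the TATA box were not searched, and the sequences above hold tatttaaa in Cp38 and tatataa in Cp7Fa. The match in Cp7Fa lies farther from the TSS than the 24 to 34 bases given above. Other forms of the hexamer were not searched either. Whether the clusters differ beyond these exact letters was not tested.

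**Figure D1:**
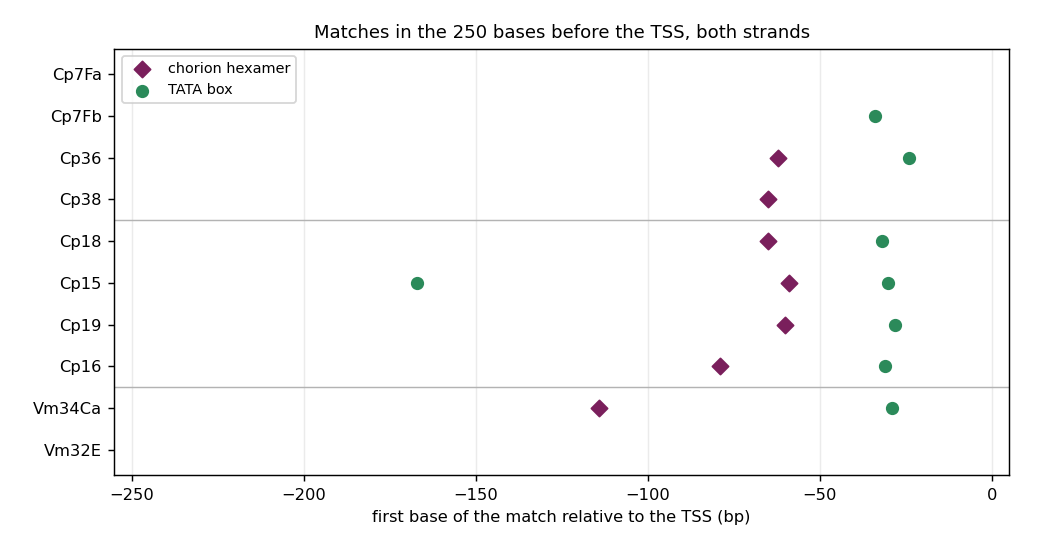
Positions of the chorion hexamer (purple diamonds) and of the exact letters TATAAA, marked TATA box (green circles), in the 250 bases before the TSS of each gene, on either strand. The x axis is the distance of the first base of the match from the TSS in bp. The y axis lists the genes of the X cluster, the 3L cluster and the vitelline group from top to bottom. Both marks stand at similar distances in the 4 genes of the 3L cluster, with the hexamer 59 to 79 bases before the TSS, and a further TATA match on the opposite strand of Cp15 lies 167 bases before it.

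Of the other motifs searched on both strands, AGGTCA, the core of nuclear receptor sites, was found in Cp7Fb, Cp15 and Cp19, against 5.02% of all genes. In Cp15 it ends inside the hexamer, starting 62 bases before the TSS, so that the 2 matches share bases. GAGAG was found in Cp7Fa and Cp18, against 25.7% of genes. GATAAG was found in Cp16, against 17.0% of genes. TCAGTT was found in Vm34Ca, against 17.9%. TATCGATA, the site of the factor DREF, and AACCCCC were found in none of the 10 windows, against 7.996% and 1.38% of all genes. A match describes the letters and is not a binding site.

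Binding was read from the authors' deposited lists on dm6. Each replicate has a list of 30000 candidates ranked by signal value, and a further list of 30000 was made from both replicates pooled. The irreproducible discovery rate (IDR) procedure, which compares ranks between replicates, left 3894 candidates of the pooled list. Each IDR peak read here held the same rank in the IDR list as in the pooled list. The IDR set is therefore a cut on pooled signal, and an IDR peak is not shown singly to rank alike in the replicates. A candidate was assigned to a gene when its summit lay within 500 bp of an annotated TSS. Each eggshell gene described here has 1 annotated TSS. A gene with several TSSs was counted from any of them, and no share was adjusted for the number of TSSs. Signal is the peak caller's own value, its scale differs between lists, and each list runs down into background. The weakest signal was 70.0 among IDR peaks, 18.9 in the pooled list, 14.2 in replicate 2 and 6.69 in replicate 3.

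An IDR promoter peak was found at 4 of the 10 eggshell genes, namely Cp36, Cp7Fb and Cp7Fa of the X cluster and Vm34Ca of the vitelline genes. Among all protein-coding genes 26.3% had one, so the count of 4 in 10 is no result about the eggshell genes as a whole. Cp38 and Vm32E were added in the pooled list, which gave 6 of 10 against 57.5% of all genes. The same 6 genes had a candidate in replicate 2, against 57.6% of all genes, and in replicate 3, against 52.6%. Candidates in both replicates were thus found at 6 of the 10 eggshell genes and at 44.5% of all genes. Within the 10 the split followed position: the X cluster had an IDR peak at 3 of 4 genes and a candidate in each replicate at 4 of 4, the 3L cluster had 0 of 4 in all the lists, and the vitelline genes had an IDR peak at 1 of 2 and a candidate in each replicate at 2 of 2. Genes of 1 cluster share their neighbourhood and are not independent, so this split carries no test.

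**Figure D2:**
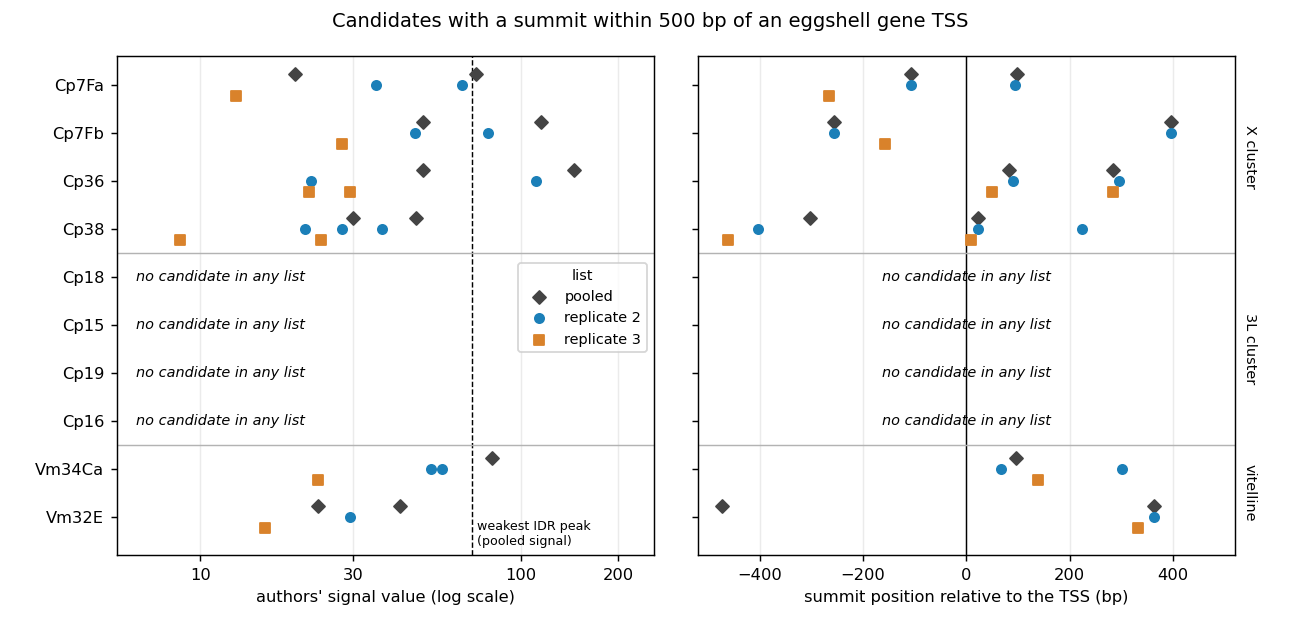
Candidates within 500 bp of a TSS of the 10 eggshell genes, with the authors' signal value on a log axis (left) and the position of the summit relative to the TSS in bp (right), for the pooled list (grey diamonds), replicate 2 (blue circles) and replicate 3 (orange squares); each point is 1 candidate, and scales differ between lists. Pooled candidates to the right of the dashed line, the weakest IDR signal of 70.0, are at Cp36, Cp7Fb, Vm34Ca and Cp7Fa, and the 4 genes of the 3L cluster have no point.

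Cp36, one of the major chorion proteins of the X cluster, had the strongest promoter peak of the 10. Its gene spans chrX:8479319-8480523 on the plus strand (FBgn0000359). The signal of its strongest candidate was 111 in replicate 2, where it ranked 1248, and 29.3 in replicate 3, where it ranked 2067. The IDR peak at chrX:8479202-8479601 had a pooled signal of 146 and ranked 1322 in the pooled list. Its summit was 83 bp after the TSS, in the coding sequence of Cp36, which lies in an intron of CG33223 on the opposite strand. The summit was 90 bp after the TSS in replicate 2 and 49 bp after it in replicate 3, also inside the gene. A weaker candidate followed at 283 bp, with pooled signal 49.5, and each replicate had one close to it, of 22.0 in replicate 2 and 21.7 in replicate 3.

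Cp7Fb (FBgn0014465, chrX:8473837-8476071, plus strand), another chorion protein gene of the X cluster, ranked next. Signal was 78.7 in replicate 2 and 27.7 in replicate 3, with ranks of 2231 and 2223. The IDR peak at chrX:8473381-8473780 had pooled signal 115.1 and rank 1947. Its summit was 256 bp before the TSS in replicate 2 and in the pooled list, and 157 bp before it in replicate 3. The second candidate, 396 bp after the TSS, was in the pooled list (49.3) and in replicate 2 (46.7), and replicate 3 held none at that place within the promoter window.

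Cp7Fa (FBgn0014464, chrX:8470888-8473087, plus strand) is the first gene of the X cluster. Its strongest candidate had a signal of 65.4 in replicate 2 at rank 2945, and of 13.0 in replicate 3 at rank 6968. The replicates were thus less alike here than at Cp36 or Cp7Fb, and their summits lay 107 bp and 265 bp before the TSS. The IDR peak at chrX:8470581-8470980 had pooled signal 72.1 at rank 3720, close to the weakest IDR signal of 70.0. A weaker candidate lay 98 bp after the TSS in the pooled list (19.7) and 94 bp after it in replicate 2 (35.1). Replicate 3 held none at that place.

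Cp38 (FBgn0000360, chrX:8481837-8483311, plus strand), the other major chorion protein gene of the X cluster, had candidates but no IDR promoter peak, and the nearest IDR summit was 1962 bp from its TSS. Its strongest pooled candidate had signal 46.9 at rank 6619, with the summit 22 bp after the TSS in the 5′ UTR. In replicate 3 the strongest candidate, of signal 23.8, lay 10 bp after the TSS and ranked 2718, higher than that of Cp7Fa or Vm34Ca. In replicate 2 the candidate at 22 bp had signal 27.6 at rank 10396, and a stronger one of signal 36.9 at rank 6666 lay 402 bp before the TSS. The order of the X genes therefore differed between replicates: Cp36, Cp7Fb, Cp7Fa, Cp38 in replicate 2 and Cp36, Cp7Fb, Cp38, Cp7Fa in replicate 3.

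Vm34Ca (FBgn0003983, chr2L:13411141-13411631, minus strand), which encodes a vitelline membrane protein, had an IDR peak at chr2L:13411334-13411733. Signal was 56.5 in replicate 2 and 23.3 in replicate 3, at ranks 3628 and 2804, and the pooled signal was 81.3 at rank 3195. The pooled summit lay 97 bp after the TSS in the coding sequence, between those of replicate 2 at 67 bp and replicate 3 at 138 bp. Replicate 2 had a second candidate of similar signal, 52.4, at 302 bp.

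Vm32E (FBgn0014076, chr2L:11171167-11171665, minus strand), which also encodes a vitelline membrane protein, had weak candidates and no IDR promoter peak. Signal was 29.3 in replicate 2 at rank 9499 and 15.9 in replicate 3 at rank 4797, with a pooled signal of 42.0 at rank 7772. The pooled summit, 364 bp after the TSS, was in the coding sequence of Vm32E, a gene inside an intron of Ca-beta, which encodes a calcium channel subunit and has a TSS of its own within 500 bp of that summit. The candidate therefore counts for Ca-beta as well. The nearest IDR summit was 16300 bp away.

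The sequence around the summit (50 bases either side) is shown for the 3 members whose IDR window lies outside annotated UTRs, from the same RefSeq assembly and on the strand of the gene. Cp36 is left out because its window overlaps a UTR. None of the 3 windows holds TCACGT, so they contain no capitals; G and C made up 47.5% of the Cp7Fa window, 45.5% of that of Cp7Fb and 59.4% of that of Vm34Ca, which is coding.
Cp7Fa, chrX:8470731-8470831, plus strand: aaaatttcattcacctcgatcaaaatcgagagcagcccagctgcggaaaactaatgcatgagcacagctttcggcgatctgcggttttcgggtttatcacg
Cp7Fb, chrX:8473531-8473631, plus strand: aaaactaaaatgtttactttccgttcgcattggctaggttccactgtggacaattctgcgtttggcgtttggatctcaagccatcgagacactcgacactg
Vm34Ca, chr2L:13411484-13411584, minus strand: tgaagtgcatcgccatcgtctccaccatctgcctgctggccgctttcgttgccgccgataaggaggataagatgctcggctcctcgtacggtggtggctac

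Promoter signal was set beside that of all genes. The 4 members had a median promoter signal of 98.2, against a median of 133 and quartiles of 94.8 and 209.9 over all 3662 genes with an IDR promoter peak. The 6 members in the pooled list had a median of 76.7, against 63.1 with quartiles of 34.2 and 122 over 8019 genes. These medians cover the members that had a candidate, not all 10. The replicate 2 signal divided by the replicate 3 signal was 3.79 for Cp36, 5.05 for Cp7Fa, 2.84 for Cp7Fb, 1.55 for Cp38, 2.42 for Vm34Ca and 1.85 for Vm32E. Over the 6204 genes with candidates in both replicates this ratio had a median of 2.64 and quartiles of 2.05 and 3.46, so Cp36 and Cp7Fa were above the quartiles and Cp38 and Vm32E below them. Since the scales of the lists differ, the ratio is read only against that of other genes. The ratio takes the strongest candidate of each replicate within 500 bp of the TSS, wherever it lies. At Cp38 these lay 402 bp before the TSS in replicate 2 and 10 bp after it in replicate 3.

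The 3L chorion genes were without any candidate near their TSSs. Cp18 (FBgn0000357, chr3L:8726791-8727613), Cp15 (FBgn0000355, chr3L:8728481-8729066), Cp19 (FBgn0000358, chr3L:8729865-8730604) and Cp16 (FBgn0000356, chr3L:8731944-8732599) are all on the plus strand and encode major chorion proteins. The nearest pooled summit was 16436 bp from the TSS of Cp18, 18126 bp from that of Cp15, 19179 bp from that of Cp19 and 17100 bp from that of Cp16. In replicate 2 these distances were 18518, 20208, 19196 and 17117 bp in the same order of genes, and in replicate 3 they were 17311, 19001, 18577 and 16498 bp. Among the candidates counted for the other 6 genes, the farthest summit was 472 bp from its TSS, at Vm32E. As lists of fixed length hold no value for DNA below their weakest signal, the absence of a candidate does not say that signal there was 0. It was not tested whether the authors masked any region before the lists were made, and a masked region would hold no candidate at any signal.

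The contrast between the clusters extended over the DNA around them. The X window, taken from 10 kb before Cp7Fa to 10 kb after Cp38 (chrX:8460888-8493311, 32424 bp, 12 protein-coding gene starts), held 44 pooled candidates, 38 of replicate 2, 37 of replicate 3 and 7 IDR peaks. The 3L window made the same way (chr3L:8716791-8742599, 25809 bp, 8 protein-coding gene starts) held 0 in all 4 lists. Candidates covered 15624 bp or 48.2% of the X window in the pooled list, 42.1% in replicate 2 and 38.9% in replicate 3. Overlapping candidates joined into 32 separate runs in the pooled list, the longest of 979 bp. The longest run was 948 bp in replicate 2 and 865 bp in replicate 3. The median width of a candidate was 400 bp in the pooled list and 370 bp in replicate 3, and no pooled candidate was wider than 466 bp. Run length and coverage thus follow from that width and from the number of candidates. The lists therefore cannot show whether a broad domain was present. Most candidates of the X window were weak, though their median was above that of their whole list. It was 39.9 against 28.3 in the whole pooled list, 30.8 against 22.1 in replicate 2, and 15.1 against 9.28 in replicate 3. Since the X cluster is amplified in follicle cells and the lists give neither read counts nor the coverage of the control, more DNA copies and more protein per copy cannot be told apart there. The 3L cluster is amplified too and its window held no candidate, but the bearing of copy number on the count of either window was not tested.

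**Figure D3:**
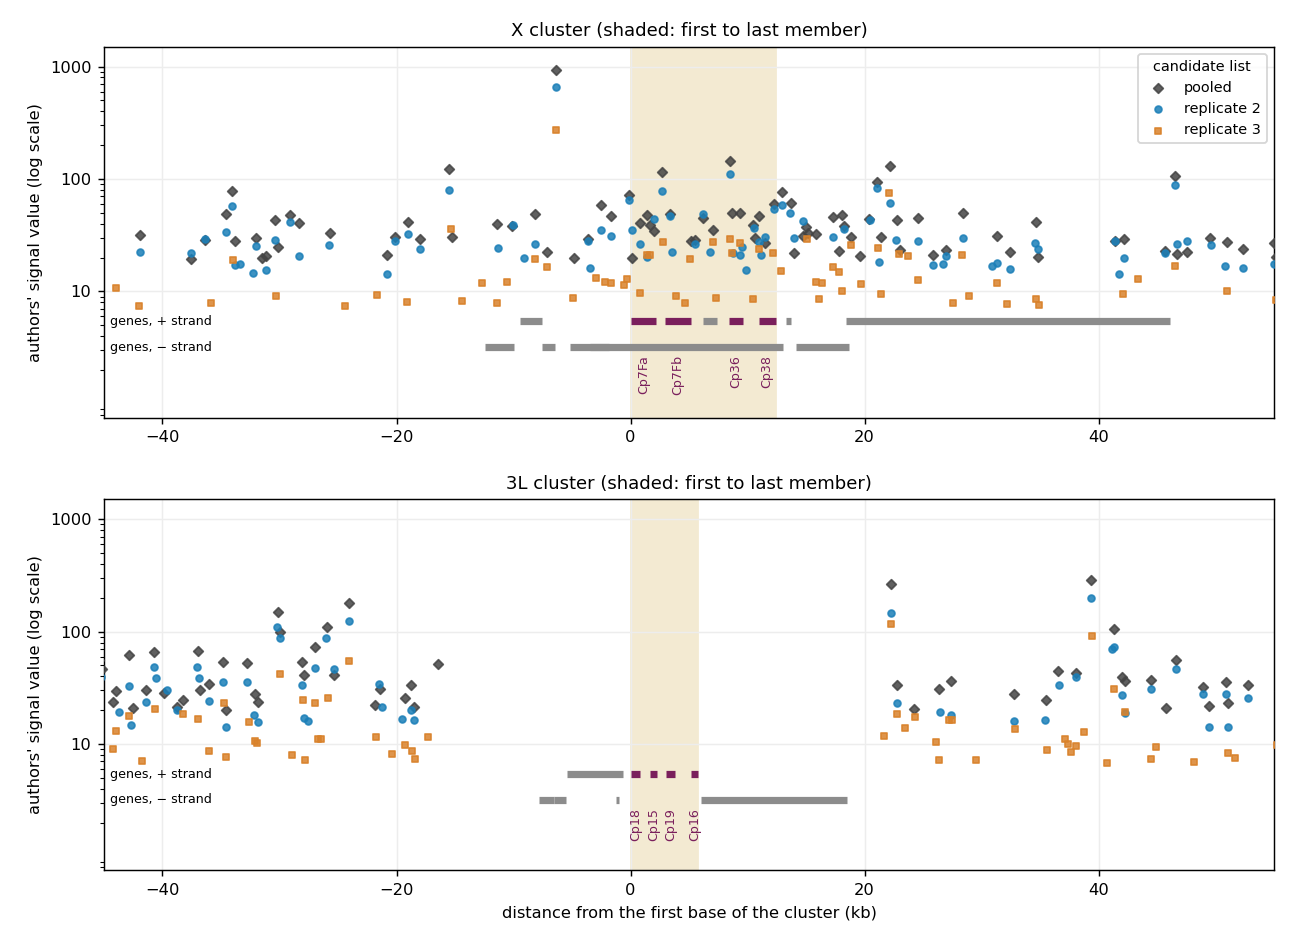
Candidates around the X cluster (top) and the 3L cluster (bottom), with distance from the first base of the cluster in kb on the x axis and the authors' signal value on a log y axis; points are candidates of the pooled list and of each replicate, the shaded band runs from the first to the last member, and bars show the genes within 10 kb of the cluster by strand, eggshell genes in purple. Points fill the X cluster and its surroundings, with 44 pooled candidates in the window, and the band of the 3L cluster and about 16 kb on either side of it are empty.

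Windows of the same length laid end to end along the 5 large arms, leaving out those that overlap the cluster, gave the background. Of 4083 windows of the X length none held as many as 44 pooled candidates (0%), the median was 5 with quartiles of 1 and 12, and the highest was 34. In replicate 2 the median was 5 and the highest 35, against 38 in the X window, and in replicate 3 the median was 7 and the highest 26, against 37. On the X chromosome alone the pooled median was 6 and the highest 31. Where windows had at least 12 protein-coding gene starts, as the X window does, the median over 114 of them was 16. The X window was less unusual by IDR peaks, since 33 windows held 7 or more. With windows begun every 1 kb, a choice made after the data were seen, the highest count was 41 in the pooled list and 36 in replicate 3, still below the X window, but 43 in replicate 2, where 38 of 132307 windows reached its count of 38.

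An empty window was common in itself. Of 5131 windows of the 3L length, 1143 or 22.3% held no pooled candidate, and the median was 4 with quartiles of 1 and 10. It was rarer where genes are dense: of 413 windows with at least 8 protein-coding gene starts, 10 or 2.42% were empty, and their median was 12. Replicate 2 left 18 of these 413 empty and replicate 3 left 8.

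**Figure D4:**
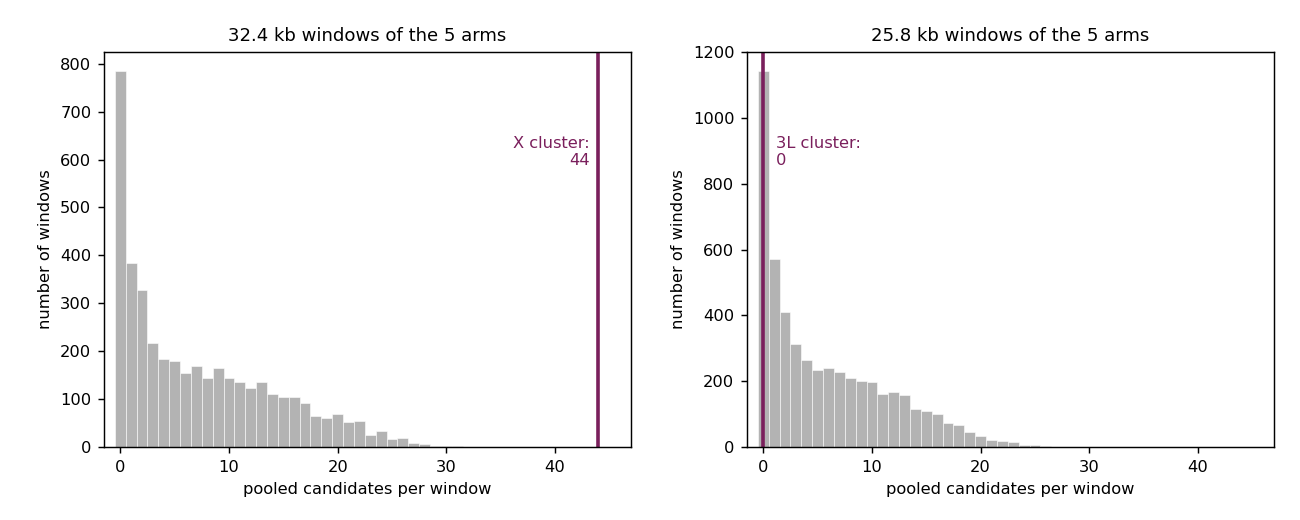
Number of pooled candidates (x axis) in windows laid end to end along the 5 large arms (bars, number of windows on the y axis), with the window of the X cluster (left, 44 candidates) and of the 3L cluster (right, 0 candidates) as vertical lines. The X cluster stands beyond the highest of 4083 other windows, and the 3L cluster falls in the tallest bar, which holds 1143 of 5131.

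On 3L the stretch without candidates was longer than the cluster. In the pooled list it ran for 38.7 kb between summits at 8710355 and 8749044, which left 16.4 kb free on each side of the 4 chorion genes, and it was 40.8 kb long in replicate 2 and 39.0 kb in replicate 3. It held 9 protein-coding gene starts. Beside the 4 chorion genes these were SrpRbeta, a subunit of the signal recognition particle receptor, Prm, which encodes the muscle protein paramyosin, and CG32022, CG6511 and CG43965, named here because they lie in the interval. Of the other intervals between neighbouring pooled summits on the 5 arms, 377 were at least as long, with a median of 2 gene starts inside, and 30 of those held 9 or more. In replicate 2, 424 were at least as long as its own empty stretch and 53 of them held 9 or more. In replicate 3, 133 were at least as long and 7 of them held 9 or more.

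Beyond the empty stretch the surroundings of the clusters were more alike. Counted in 10 kb steps outward from the 3L cluster, pooled candidates numbered 0, 4, 9, 12 and 14 on the side of lower coordinates and 0, 3, 4, 8 and 7 on the other side. Around the X cluster they numbered 8, 6, 5, 10 and 5 on the lower side and 17, 8, 4, 7 and 6 on the higher side, with 15.3 per 10 kb inside the cluster, 16.1 in replicate 2 and 12.1 in replicate 3. The mean of the 5 arms was 2.24 per 10 kb in the pooled list, 2.46 on X and 2.13 on 3L. Every pooled step of both surroundings was thus above its arm's mean, apart from the first on either side of the 3L cluster, which held 0. Counts peaked inside the X cluster and in the 10 kb after it, and they were 0 inside the 3L cluster and in the 10 kb on either side.

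**Figure D5:**
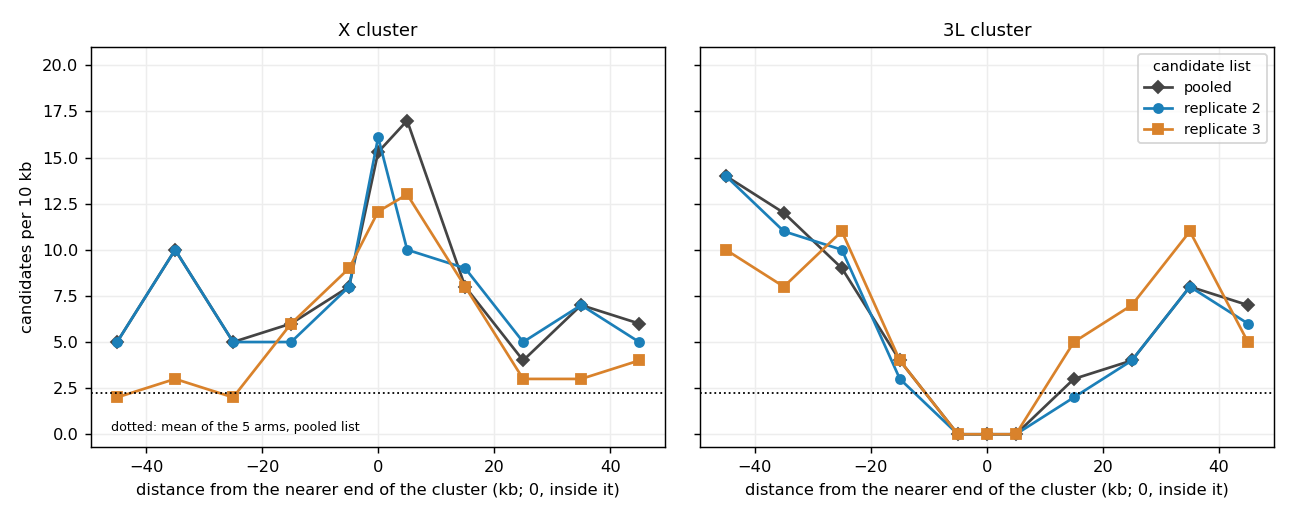
Candidates per 10 kb against distance from the nearer end of the cluster in kb (0, inside it) for the X cluster (left) and the 3L cluster (right), in the pooled list and in each replicate; the dotted line is the mean of the 5 arms in the pooled list, 2.24. The lines peak at or beside the X cluster and fall to 0 at the 3L cluster, and they stand above the dotted line 20 to 50 kb from the 3L cluster in every list.

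Both replicates contributed to the X window, and not always at the same places. Of its 38 replicate 2 candidates, 20 (52.6%) overlapped a replicate 3 candidate by at least 50%, against 41.8% of all 30000 candidates. Of its 37 replicate 3 candidates, 19 (51.4%) overlapped one of replicate 2, against 40.4% of all. The window holds more candidates per kb than the genome, and the part of that density in these shares was not tested.

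The strongest peak of the X window was at none of the chorion genes. It lay at -108 bp from the TSS of Sptr, which encodes sepiapterin reductase, an enzyme of pteridine synthesis, with signal 664 in replicate 2, 270 in replicate 3 and 934 in the pooled list at rank 15. Apart from Sptr and the chorion genes, an IDR promoter peak was found at CG33223, whose gene runs on the minus strand across the whole cluster, with signal 76.1 at 86 bp after its TSS; the same summit lies at -395 bp from the TSS of lncRNA:CR43834. The 2 remaining IDR peaks of the window, of signal 93.3 and 131, lay inside CG33181, away from its promoter. Cp7Fc, a chorion gene between Cp7Fb and Cp36 that is not one of the 10, had a pooled candidate of 44.9 and one of 48.7 in replicate 2, and none in replicate 3.

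The other genes of the eggshell were read in the same way. Of 16 further eggshell genes, 1 had an IDR promoter peak, against 26.3% of all protein-coding genes. This was fs(1)N, which encodes an eggshell protein needed for signalling at the ends of the embryo, with signal 63.6 in replicate 2, 35.0 in replicate 3 and 99.2 in the pooled list, at -37 bp from the TSS. Pooled candidates were found at 13 of the 16, against 57.5% of all genes, and replicate 2 candidates at 13, against 57.6%. Replicate 3 candidates were found at 7, against 52.6%, and the same 7 had candidates in both replicates, against 44.5%.

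Of 14 genes whose products act in chorion gene amplification, 9 had an IDR promoter peak, against 26.3% of all protein-coding genes, and all 14 had a pooled candidate, against 57.5%. The 5 strongest were SuUR, a chromatin protein that slows replication forks (391), dup, which loads the replicative helicase (315), Dp, the partner of E2F (278), chif, the activating subunit of the kinase that fires origins (176), and Orc1, a subunit of the origin recognition complex (151), each value being the pooled signal. These lie at other places in the genome and say nothing of binding at the clusters. Of 7 regulators of follicle cells and chorion genes, 1 had an IDR promoter peak, usp, the partner of the ecdysone receptor, with signal 139 in replicate 2, 42.8 in replicate 3 and 187 in the pooled list. All 7 had a candidate in both replicates, against 44.5% of all genes.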

How the data were processed

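ChIP-seq lists of 2 replicates of 1 group were used. Per the text files deposited beside the lists, the authors made candidates for each replicate from its alignments and a control, made a pooled list, and thresholded the optimal IDR set on dm6. The values used are the signal values deposited by the authors, with no scaling between lists; their depth is unknown. For the aligner, the peak caller, the IDR threshold and multiply mapping reads, methods were not given in the sources used here. Lists on dm3 and signal tracks were not used here. No column of per-sample values was left without a sample (0).

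TSSs were the 5′ ends of all transcripts in Ensembl release 115, and summits were the deposited offsets. Windows of the cluster lengths were laid end to end on the 5 large arms. Sequence came from the RefSeq release 6 assembly. Python 3.11.15, pandas 2.3.3 and numpy 2.4.6 were used, and the counting was tested on simulated data. Alternatives were promoter windows of 250 and 1000 bp, the most upstream TSS, peak overlap, the stronger part of each list, flanks of 5 and 20 kb, and each replicate alone. The members and gene lists were chosen with earlier results of these data known. Named beside the 10 members are genes of 3 lists with an IDR promoter peak (at most 5 a list) and genes with IDR promoter peaks in a cluster window or sharing a member's peak; SrpRbeta, Prm, CG32022, CG6511, CG43965, CG33181 and Cp7Fc were named after their values were seen. In the list of other eggshell genes 17 names were written, of which fs(1)ph is a synonym of fs(1)M3, so 16 genes were counted.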

Additional observations from a re-analysis of the deposited data

How the results depend on the processing

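Settings that moved a count beyond 1.5 times were these 4. With only the IDR peaks above their median signal, 2 members kept a promoter peak (Cp36 and Cp7Fb). With a promoter window of 250 bp, 3 members had a candidate in both replicates, while the IDR count was 3 and the pooled count 4. With 20 kb either side, the 3L window held 7 pooled candidates that covered 2374 bp, all of them more than 10 kb from the cluster by construction. The remaining settings tried stayed within 1.5 times. Taking the 3894 strongest candidates of a single replicate in place of the IDR set left 4 members either way, with Cp38 in place of Cp7Fa when replicate 2 was left out. The X window held 37 candidates without replicate 2 and 38 without replicate 3, and 36 among the pooled candidates above the median signal; the 3L window held 0 in each of these. No paired analysis was possible because there was 1 group. The lists end at a rank, so weaker signal at the 3L cluster would not be listed, and without read counts no interval can be given for a signal value.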

Other observations

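Other eggshell loci were counted in windows of 10 kb either side. Around Vm26Aa and its neighbours on 2L (23337 bp) there were 18 pooled candidates, 15 in replicate 2, 12 in replicate 3 and 1 IDR peak, against a pooled median of 3 with quartiles of 1 and 9 over 5674 windows of that length. Around yellow-g and yellow-g2 on 3L (28158 bp), genes of eggshell crosslinking, there were 15 pooled candidates, 11 in replicate 2, 18 in replicate 3 and 2 IDR peaks, against a pooled median of 4 with quartiles of 1 and 10 over 4704 windows. Around Vm32E there were 9 pooled candidates, 8 in each replicate and no IDR peak, against a pooled median of 3. Around Vm34Ca there were 4 pooled candidates, 5 in replicate 2, 6 in replicate 3 and 1 IDR peak, against a pooled median of 3. These windows were chosen after the cluster windows had been seen.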
